A study of Mus musculus with 9 samples.

Results

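Interferon-stimulated genes were followed in the mouse colon as a set of 29 members: all probes of 9 single-colour arrays whose RefSeq accession belonged to 1 of 29 symbols. Of these, 27 genes had a probe on the array, and all 27 passed the filter on dim probes, among 21964 features tested and 15346 of them named. Mx1 and Mx2, the myxovirus resistance GTPases, are not analysed here. The 27 genes were read by 39 probes, 38 of which passed the filter, and for the 9 genes with several probes the brightest stood for the gene.

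Mice of the outbred ICR stock were used, and RNA was taken from colonic mucosa labelled normal. All animals were injected under the skin with 1,2-dimethylhydrazine (DMH), a carcinogen that causes colon tumors in rodents, at 20 mg/kg each week over 20 weeks. The butyrate animals also had 1.5% butyrate, a short-chain fatty acid made by gut bacteria, in their drinking water, and gave 2 groups, with tumors (3 arrays) and without tumors (3 arrays). The DMH group (3 arrays) had plain water, so no group was free of the carcinogen. Groups follow titles, descriptions and source names; for all 6 butyrate samples a further field on tumor status states the opposite, so a direction between the 2 butyrate groups rests on the titles. The labels do not say that replicates are separate animals, and p-values then measure only the spread between these samples.

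Interferons are secreted proteins that alert cells to infection. Type I interferons and the lambda interferons act through receptors that lead to a complex with Stat2 and Irf9, which binds the interferon-stimulated response element in promoters, whereas interferon gamma acts mainly through gamma-activated sites. The genes switched on include antiviral effectors, sensors of viral RNA, immunity-related GTPases and the machinery that cuts and loads peptides for MHC class I. In the gut, a low activity of these genes is maintained without infection, and the lambda interferons act mainly on the epithelium.

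The promoter windows of many members hold the letters through which this control is known to work, and 6 windows that hold them are printed to show their form and place; Gbp2 is the only called gene among the 6. RefSeq windows (GRCm38.p6) from 250 bases before to 50 after a gene's start were at hand for 23 of the 29 genes, in 26 windows. The core of the response element, GAAANNGAAA on either strand, was found in 14 of 26 windows (53.85%), against 1131 of the 32851 windows of all genes (3.443%). The gamma-activated site, TTCNNNGAA, which reads the same on both strands, was found in 5 of 26 windows (19.23%) against 2726 of 32851 (8.298%). Overlapping matches were counted apart, and the motifs can share bases. In the 6 stretches shown, each 5′ to 3′ on the gene's own strand, capitals mark the response element core, written TTTCNNTTTC where it lies on the other strand. Gbp2, Igtp and Irgm1 are GTPases, Ifit1 and Isg15 are antiviral effectors, and Oas3 makes the messenger that activates RNase L.
Gbp2, chr3:142620539-142620628, plus strand: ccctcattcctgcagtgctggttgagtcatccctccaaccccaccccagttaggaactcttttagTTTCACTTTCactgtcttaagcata
Igtp, chr11:58199457-58199546, plus strand: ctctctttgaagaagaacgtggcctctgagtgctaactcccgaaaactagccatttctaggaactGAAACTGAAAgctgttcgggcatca
Irgm1, chr11:48871421-48871510, minus strand: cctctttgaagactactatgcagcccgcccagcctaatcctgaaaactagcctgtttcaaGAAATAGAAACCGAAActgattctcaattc
Ifit1, chr19:34640739-34640828, plus strand: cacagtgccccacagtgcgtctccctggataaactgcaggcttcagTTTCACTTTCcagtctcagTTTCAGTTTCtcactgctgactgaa
Isg15, chr4:156200860-156200949, minus strand: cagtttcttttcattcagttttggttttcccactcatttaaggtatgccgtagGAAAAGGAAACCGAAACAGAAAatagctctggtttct
Oas3, chr5:120777710-120777799, minus strand: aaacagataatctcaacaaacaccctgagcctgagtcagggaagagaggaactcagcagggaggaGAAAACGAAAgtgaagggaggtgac
Isg15 held 3 overlapping cores that begin 78, 72 and 66 bases before the start, and Irgm1 held 2, at 30 and 24 bases. Ifit1 held 2 separate cores, at 104 and 85 bases, and Gbp2 a single core at 59 bases. The windows of Ifi44, Ifit2, Irf7, Irf9, Oasl1, Oasl2, Psmb8, Psmb9 and Tap1 held no core, which says only that these letters were not in these windows.

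Levels below are log2 intensities relative to the 75th percentile of each array, and a difference is between group means on this scale, with its standard error (SE) and a p-value of limma's moderated test adjusted over all 21964 features. A gene was called when the adjusted p was under 0.05. The 75th percentile of signal ran from 188 to 879.8 units in butyrate arrays and from 739.8 to 822.4 in DMH arrays, 57.8% to 72.5% of spots were well above background, and no spot was saturated. Slide 1 held array 1 with tumors and all 3 arrays without tumors, slide 2 held arrays 2 and 3 with tumors, and slides 3 and 4 held the DMH arrays, scanned on another day. In comparisons with DMH, the treatment therefore cannot be told apart from the slide and the day of the scan. The 10 epithelial markers were all tested, and their mean was 0.45 to 0.89 log2 units lower on the butyrate arrays than the DMH mean. They did not all fall: without tumors 6 were called lower and 1 higher (Slc26a3), where 30.5% of all features were called. Slc26a3 averaged 3.25 with tumors and 3.88 without tumors against 2.69 in DMH, and Vil1 6.14 and 6.48 against 6.30. Krt8 had no value on array 1 of either butyrate group. Smooth muscle markers (8 genes) stood 0.61 to 1.29 above the DMH mean with tumors and 0.23 to 1.51 above it without tumors, against -0.31 to 0.39 on the DMH arrays themselves. In bulk RNA, fewer cells of a type and less RNA per cell cannot be told apart.

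**Figure D1:**
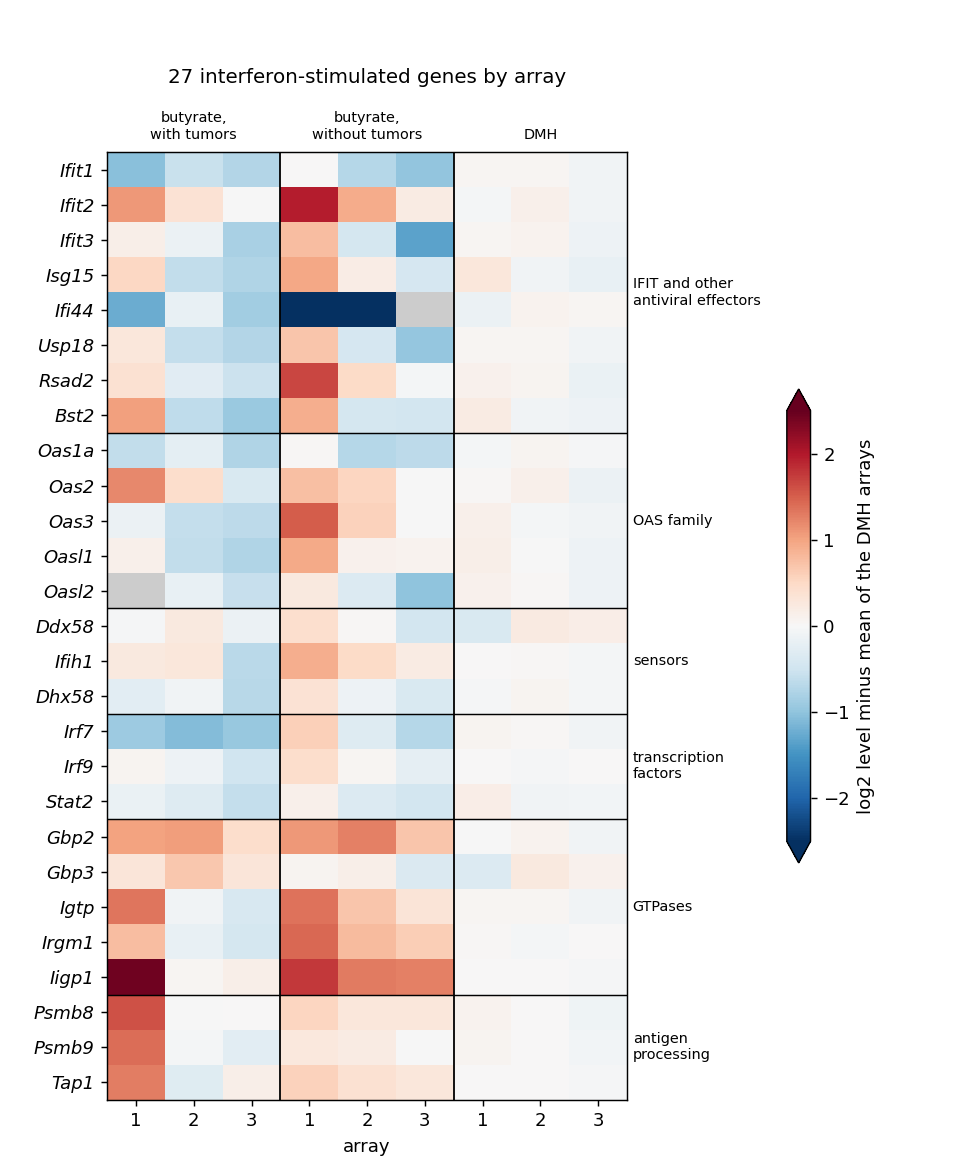
Heat map of 27 interferon-stimulated genes (rows, by role) on 9 arrays (columns, by group), with colour for the log2 level minus the mean of the 3 DMH arrays. Grey cells are spots marked as outliers, and Ifi44 without tumors lies beyond the end of the scale; array 1 of each butyrate group is redder than arrays 2 and 3, and the DMH columns are nearly uniform.

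Members varied more within the butyrate groups than within DMH, and they did so together. The median SD of a member was 0.49 log2 units with tumors and 0.43 without tumors, against 0.097 in DMH, where the medians over all features were 0.38, 0.27 and 0.12. Among the 26 genes with 3 values without tumors, array 1 was the highest for 24 and array 3 the lowest for 24, while over all features these arrays held those places for 44.1% and 31.1%. With tumors, array 1 was the highest for 18 of 26 genes and array 3 the lowest for 20 of 26, against 42.1% and 28.5% of all features. Among the DMH arrays, whose range was smaller, array 1 was the highest for 15 of 27 genes against 55.1% of all features, and array 3 the lowest for 20 of 27 against 40.9%. These counts carry no test, since the members share the arrays. The arrays on which members were highest also had the lowest signal: the 75th percentile was 188 units on array 1 with tumors, against 832.2 and 879.8 on arrays 2 and 3, and 281 on array 1 without tumors, against 444 and 416 on arrays 2 and 3. The part of signal strength in the members' order was not tested.

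Set against the 3 DMH arrays, the butyrate arrays fell on both sides. With tumors, 17 of the 26 genes measured on array 1 lay above all DMH arrays and 7 below, while array 2 had 7 of 27 above and 18 below and array 3 had 4 above and 20 below. Without tumors, array 1 had 22 of 27 genes above and 1 below, array 2 had 13 above and 10 below, and array 3 had 8 of 26 above and 13 below. The median of the 27 genes relative to the DMH mean was 0.29, -0.18 and -0.57 with tumors and 0.70, 0.16 and -0.14 without tumors, while the median over all features stayed between 0.04 and 0.12 on these 6 arrays. No butyrate group stood wholly above or below DMH.

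**Figure D2:**
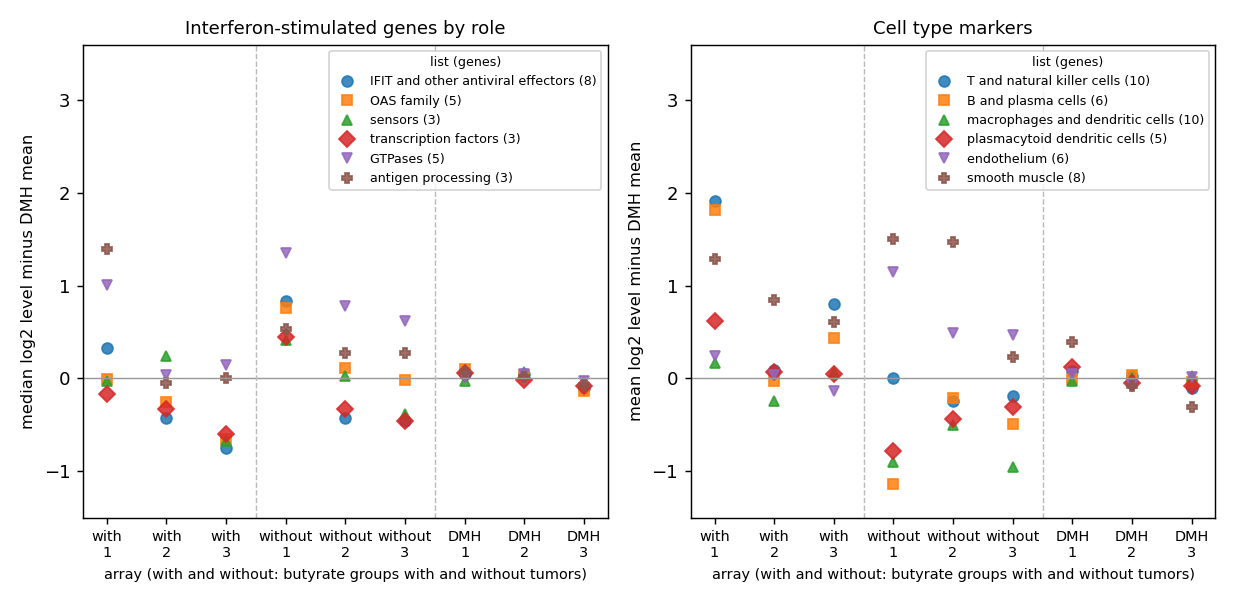
Left, the median log2 level of each role list minus its DMH mean on each array; right, the mean of marker lists of other cell types on the same scale, with the number of genes in the legend. GTPases and antigen processing genes were at 1.00 and 1.39 on array 1 with tumors, where T and natural killer cell markers were at 1.92 and B and plasma cell markers at 1.82.

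Across all 6 butyrate arrays against the 3 DMH arrays, 1 of 27 members rose and none fell, namely Gbp2, while 9.2% of all features were called. The members' median difference was 0.01 against 0.08 over all features, with 14 positive and 13 negative, and 5 members had an unadjusted p under 0.05. In 3 members the groups did not overlap (Gbp2 and Iigp1 higher, Ifi44 lower), against 26.3% of all features. Gbp2 was no longer called when array 2 of the group without tumors was left out (adjusted p = 0.0665), or DMH array 1, 2 or 3 (adjusted p = 0.108, 0.133 and 0.146), and without array 1 without tumors 2 members were called. The share of all features called in that last fit is not given here, so its count alone is not a result about the members. With the 4 arrays of slide 1 left out, only arrays 2 and 3 with tumors remained to be compared with DMH. In that fit 6 members were called, beside 11.4% of all features, and all 6 were lower: Irf7, Usp18, Ifit1, Oas3, Oasl1 and Bst2.

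Against the same DMH arrays, the group with tumors gave 0 of 27 members called by limma, with 5 at an unadjusted p under 0.05, while 5.7% of all features were called. Without array 2 with tumors 1 member was called (Ifi44, lower), and without array 1 without tumors, which shares in the estimate of the spread, 2 were (Irf7 and Ifit1, lower). The share of all features called in these fits is not given here, so their counts alone are not a result about the members. The median difference was -0.18, against 0.08 over all features, and 16 of 27 members were negative. The groups did not overlap in 11 members, 3 higher and 8 lower, against 42.6% of all features. Standard errors of the members ran from 0.20 to 0.56 log2 units.

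The group without tumors against DMH gave 2 called members, Gbp2 higher and Ifi44 lower, while 30.5% of all features were called. The median difference was 0.15, against 0.08 over all features, with 16 members positive. The groups did not overlap in 9 members, 8 of them higher, against 60.0% of all features. The count of called members was 6 without array 1 with tumors (Ifi44, Iigp1, Gbp2, Irgm1, Igtp and Psmb8, in a fit that called 45.3% of all features), 4 without array 1 or without array 3 of the group itself, and 1 without DMH array 3 (Ifi44). As the share of all features called moved between fits, a change in count alone is not a result about the members.

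Between the butyrate groups, 1 of 27 members was called, Ifi44, which was higher with tumors, while 13.5% of all features were called. The difference was negative in 21 of 27 members, with a median of -0.19 against 0.01 over all features. The groups did not overlap in 4 members (Ifi44 and Gbp3 higher with tumors, Irf7 and Oas3 lower), against 33.4% of all features. Without array 1 with tumors 6 members were called, Ifi44 higher and Iigp1, Irgm1, Oasl1, Igtp and Oas3 lower, in a fit that called 35.4% of all features. In that fit the arrays with tumors were all on slide 2 and those without tumors all on slide 1. Tumor group and slide therefore cannot be told apart there. Without array 3 with tumors no member was called (Ifi44 had an adjusted p of 0.0503), and without array 3 without tumors 2 were (Ifi44 and Oas3). For these fits too, the share of all features called is not given. These comparisons share arrays, so their values stand side by side and are not independent of each other.

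**Figure D3:**
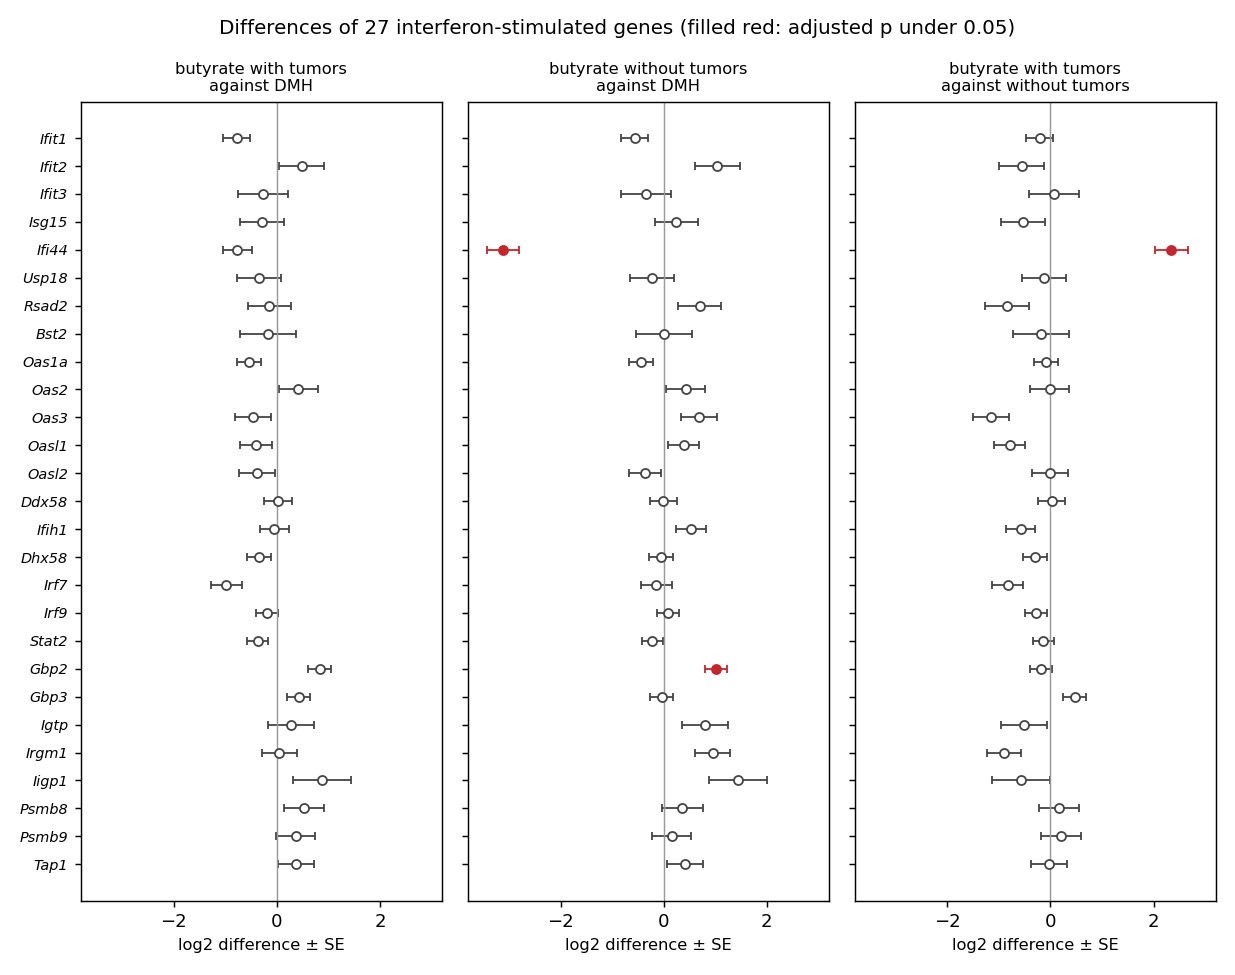
Log2 difference with its SE for each of 27 genes, by role, with tumors against DMH, without tumors against DMH, and with tumors against without tumors. Filled red points have an adjusted p under 0.05: Ifi44 and Gbp2 without tumors against DMH, and Ifi44 between the butyrate groups.

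The GTPases were the role list with the highest median difference from DMH, 0.43 with tumors and 0.95 without tumors. Gbp2, a guanylate-binding protein that coats vacuoles of intracellular pathogens, was at 2.97, 3.01 and 2.42 with tumors and at 3.06, 3.23 and 2.67 without tumors, against 1.95, 2.07 and 1.89 in DMH. Every butyrate array lay above every DMH array. Over all butyrate arrays Gbp2 averaged 2.89 ± 0.30 (SD, n = 6) against 1.97 ± 0.09 in DMH (n = 3), a difference of 0.92 ± 0.20 (adjusted p = 0.0318 by limma). The difference was 1.02 ± 0.22 without tumors (adjusted p = 0.0122) and 0.83 ± 0.22 with tumors (adjusted p = 0.0591, not called), and the butyrate groups differed by -0.19 ± 0.22 (adjusted p = 0.564). With slide as a random block neither call of Gbp2 held (adjusted p = 0.138 over all butyrate arrays and 0.12 without tumors), and the call over all butyrate arrays was also lost with the authors' values (0.0635), with no filter on dim probes (0.0627) and with DMH arrays 2 and 3 averaged (0.14). With no scaling of the arrays, the difference without tumors was -0.062 (adjusted p = 0.95), on a scale where the median of all features moved to -1.004; relative to that median Gbp2 still stood higher.

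Iigp1, an immunity-related GTPase of the same defence, was at 2.11, -0.28 and -0.17 with tumors and at 1.45, 0.99 and 0.95 without tumors, against -0.30, -0.31 and -0.34 in DMH. The group without tumors was well separated from DMH, whereas with tumors a single array was high and the other arrays were close to DMH. The difference without tumors was 1.45 ± 0.56 (adjusted p = 0.0815) and with tumors 0.87 ± 0.56 (adjusted p = 0.320), neither of them called. Without array 1 with tumors, Iigp1 was called in the comparison without tumors against DMH and in that of the butyrate groups. The butyrate groups were then on separate slides.

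Irgm1, a regulator of the other immunity-related GTPases, was at 2.57, 1.61 and 1.36 with tumors and at 3.24, 2.58 and 2.42 without tumors, against 1.83, 1.76 and 1.80 in DMH. Here too all arrays without tumors lay above DMH, and with tumors array 1 lay above and arrays 2 and 3 below. The difference of Irgm1 without tumors was 0.95 ± 0.33 (adjusted p = 0.0607), with tumors it was 0.05 ± 0.33 (adjusted p = 0.936), and between the butyrate groups -0.90 ± 0.33 (adjusted p = 0.0999). A second Irgm1 probe gave -0.26 without tumors against DMH (adjusted p = 0.489), the opposite sign, so that the 2 probes disagree. Igtp, also called Irgm3, was at 4.14, 2.70 and 2.38 with tumors and 4.15, 3.49 and 3.12 without tumors, against 2.84, 2.84 and 2.70 in DMH, and was likewise above DMH on array 1 with tumors and on all arrays without tumors. Gbp3 was at 1.47, 1.85 and 1.47 with tumors and 1.25, 1.33 and 0.82 without tumors, against 0.82, 1.42 and 1.27 in DMH, and was not called in any comparison.

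Of the 8 antiviral effectors measured, 1 was called in any comparison. Ifi44, an interferon-induced protein of the cytoplasm, was at -1.04, 0.03 and -0.67 with tumors and at -3.06 and -2.75 on arrays 1 and 2 without tumors, against 0.07, 0.30 and 0.25 in DMH. Its spot on array 3 without tumors was marked as not uniform by the scanner software and left out, and it would have read -0.43. The group without tumors thus rests on 2 values; its mean was -2.91 ± 0.22 (SD, n = 2) against 0.21 ± 0.13 in DMH (n = 3), a difference of -3.11 ± 0.31 (adjusted p = 0.00152 by limma). With that spot kept the difference was -2.29 (adjusted p = 0.0272). The group with tumors was higher than the group without tumors by 2.35 ± 0.31 (adjusted p = 0.0128), a call that was lost with the spot kept (1.52, adjusted p = 0.128) and with slide as a fixed block (1.87, adjusted p = 0.0826). Against DMH, Ifi44 differed by -0.77 ± 0.28 with tumors (adjusted p = 0.121) and by -1.71 ± 0.69 over all butyrate arrays (adjusted p = 0.134).

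None of the other 7 effectors was called. Ifit1, which binds viral RNA lacking host marks at its end, was at 1.86, 2.35 and 2.17 with tumors and at 2.92, 2.19 and 1.92 without tumors, against 2.95, 2.94 and 2.82 in DMH. All arrays with tumors lay below DMH, and without tumors array 1 overlapped DMH. The difference with tumors was -0.78 ± 0.26 (adjusted p = 0.0994), without tumors -0.57 ± 0.26 (adjusted p = 0.130), and over all butyrate arrays -0.67 ± 0.24 (adjusted p = 0.0928). Its neighbour Ifit2 had the opposite sign, with levels of 0.66, -0.06 and -0.43 with tumors and 1.54, 0.50 and -0.22 without tumors, against -0.48, -0.29 and -0.51 in DMH (1.04 ± 0.44 without tumors against DMH, adjusted p = 0.102).

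Isg15, a ubiquitin-like protein that is attached to other proteins, was at 3.59, 2.46 and 2.31 with tumors and at 4.03, 3.26 and 2.66 without tumors, against 3.34, 2.98 and 2.88 in DMH. Usp18, the protease that removes it and dampens the receptor, was at 1.49, 0.62 and 0.48 with tumors and at 1.91, 0.80 and 0.24 without tumors, against 1.25, 1.26 and 1.13 in DMH. Bst2, or tetherin, which holds budding viruses on the cell surface, was at 3.31, 1.64 and 1.35 with tumors and at 3.19, 1.84 and 1.82 without tumors, against 2.49, 2.19 and 2.16 in DMH. In each of the 3 genes array 1 of both butyrate groups lay above the DMH arrays and array 3 of both below them. Ifit3 showed this too, at 2.11, 1.81 and 1.16 with tumors and at 2.73, 1.52 and 0.62 without tumors, against 2.01, 2.05 and 1.83 in DMH.

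Rsad2, or viperin, an enzyme that makes a chain-terminating nucleotide, was at 1.30, 0.64 and 0.40 with tumors and at 2.59, 1.41 and 0.87 without tumors, against 1.02, 0.98 and 0.77 in DMH. It was not called by its brightest probe. When every probe was tested as its own feature, a dim Rsad2 probe gave -1.99 with tumors against DMH (adjusted p = 0.0362) and -1.52 between the butyrate groups (adjusted p = 0.037), on 8 of 9 arrays well above background, while a further probe gave -0.26 and -0.15. Without tumors against DMH the brightest probe gave 0.70 and the others -0.46 and -0.10, so the probes of Rsad2 disagree in sign as well as in size.

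**Figure D4:**
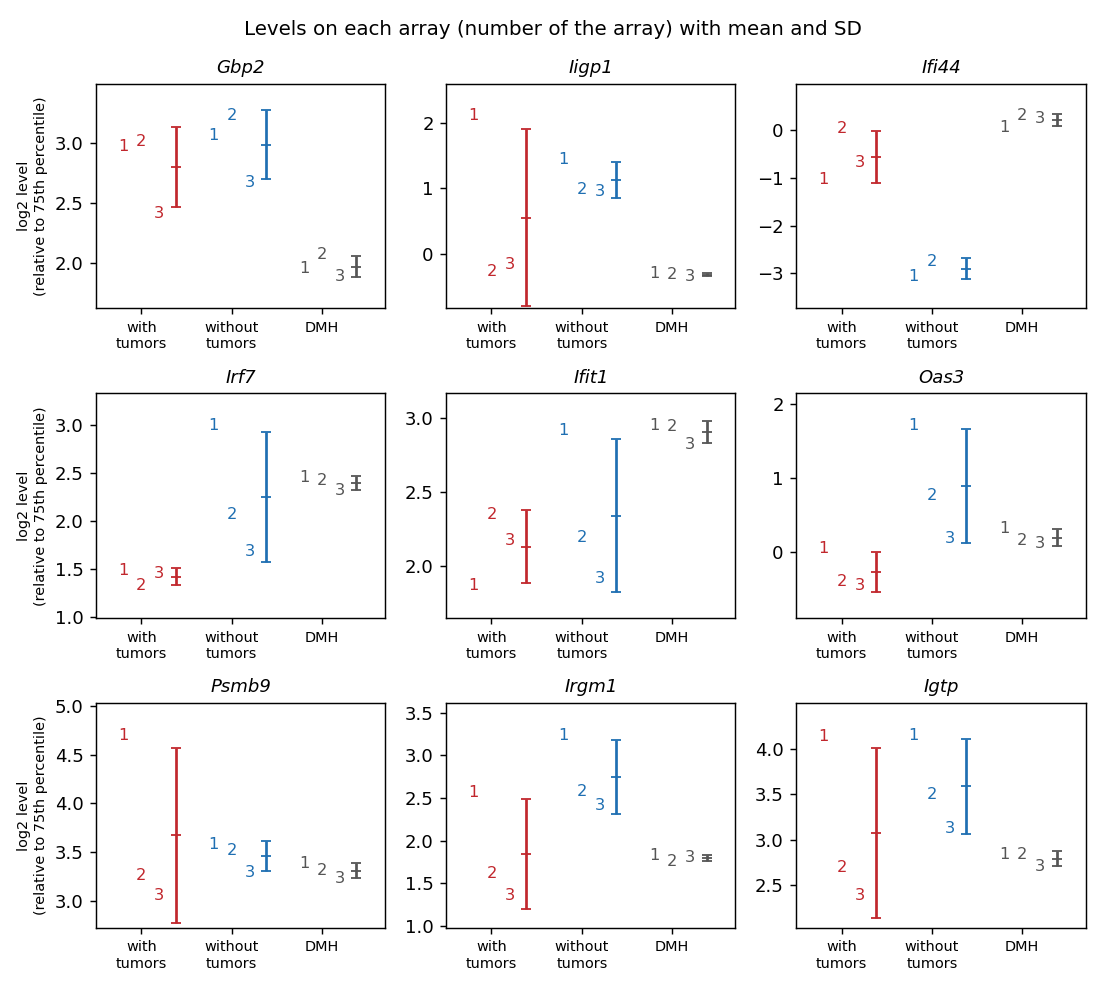
Log2 levels of 9 interferon-stimulated genes; each digit is an array at its level, with the group mean and SD beside it, for butyrate with tumors (red), butyrate without tumors (blue) and DMH (grey). Gbp2 is higher on all 6 butyrate arrays, Ifi44 is lowest on 2 arrays without tumors, Irf7 is below DMH on all 3 arrays with tumors, and Iigp1 and Psmb9 are high on array 1 with tumors; each panel has its own axis.

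In the OAS family, enzymes that sense double-stranded RNA and their relatives, none of 5 members was called, and the median difference from DMH was -0.41 with tumors and 0.39 without tumors. Oas3 was at 0.04, -0.39 and -0.46 with tumors and at 1.71, 0.77 and 0.18 without tumors, against 0.32, 0.15 and 0.11 in DMH. All arrays with tumors lay below all arrays of both other groups, and the butyrate groups differed by -1.15 ± 0.35 (adjusted p = 0.0617, not called). A dimmer Oas3 probe, tested as its own feature, gave -1.31 between the butyrate groups (adjusted p = 0.0448) and 1.11 without tumors against DMH (adjusted p = 0.043), both under the threshold. Oasl1, which represses translation of Irf7 in mouse, was at 3.33, 2.59 and 2.45 with tumors and at 4.15, 3.31 and 3.29 without tumors, against 3.34, 3.18 and 3.07 in DMH, and the butyrate groups differed by -0.79 ± 0.31 (adjusted p = 0.108).

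Oas1a was at 1.07, 1.43 and 0.92 with tumors and at 1.71, 0.96 and 1.03 without tumors, against 1.63, 1.75 and 1.66 in DMH; the difference was -0.54 ± 0.23 with tumors (adjusted p = 0.166) and -0.49 ± 0.21 over all butyrate arrays (adjusted p = 0.142). Oasl2 was at 4.19 and 3.81 with tumors, where the spot of array 1 was marked as an outlier, and at 4.62, 4.05 and 3.37 without tumors, against 4.48, 4.42 and 4.24 in DMH. Oas2 was at 2.97, 2.20 and 1.38 with tumors and at 2.53, 2.31 and 1.77 without tumors, against 1.79, 1.89 and 1.63 in DMH. By this brightest probe neither butyrate group was apart from DMH in Oas2. A dimmer Oas2 probe was at -2.59, -3.48 and -4.01 without tumors, against -4.72, -4.26 and -4.27 in DMH. Tested as its own feature, it gave 1.06 ± 0.36 (adjusted p = 0.0556 by limma, not called), without overlap. The group with tumors was lower than DMH without overlap in Oas1a and Oasl2. Oas1a, Ifit3 and Iigp1 have closely related copies in the mouse genome, and whether their probes read more than one copy was not tested.

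The 3 transcription factors of the set gave no call. Irf7, the factor that amplifies type I interferon production, was at 1.49, 1.32 and 1.45 with tumors and at 3.00, 2.07 and 1.69 without tumors, against 2.46, 2.42 and 2.32 in DMH. The 3 arrays with tumors were close together and below all arrays of the other groups, with a mean of 1.42 ± 0.09 against 2.40 ± 0.07 in DMH (SD, n = 3 each). The difference of Irf7 with tumors was -0.98 ± 0.30 against DMH (adjusted p = 0.0806 by limma) and -0.83 ± 0.30 against the group without tumors (adjusted p = 0.0939). Stat2 was at 0.17, 0.01 and -0.26 with tumors and at 0.47, -0.001 and -0.11 without tumors, against 0.51, 0.25 and 0.27 in DMH, a difference with tumors of -0.37 ± 0.20 (adjusted p = 0.258). Irf9, its partner in the response element complex, was at 1.58, 1.38 and 1.01 with tumors and at 1.95, 1.55 and 1.29 without tumors, against 1.53, 1.49 and 1.52 in DMH, so that both butyrate groups spanned the DMH level.

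The 3 sensors of viral RNA in the cytosol were not called. Ifih1, or MDA5, was at 2.26, 2.30 and 1.34 with tumors and at 2.92, 2.50 and 2.22 without tumors, against 2.02, 2.05 and 1.97 in DMH, and all arrays without tumors lay above DMH (0.53 ± 0.29, adjusted p = 0.184). A dimmer Ifih1 probe gave -0.33 in that comparison (adjusted p = 0.727). Dhx58, or LGP2, was at 1.59, 1.76 and 1.17 with tumors and at 2.22, 1.73 and 1.47 without tumors, against 1.83, 1.92 and 1.81 in DMH. Ddx58, which encodes RIG-I, was at -1.83, -1.56 and -1.94 with tumors and at -1.38, -1.77 and -2.25 without tumors, against -2.18, -1.57 and -1.64 in DMH, with group means within 0.03 of each other. The 2 dimmer Ddx58 probes that passed the filter gave -0.50 and -0.44 with tumors against DMH (adjusted p = 0.143 and 0.264) and -0.51 and -0.25 between the butyrate groups (adjusted p = 0.118 and 0.507). For each of these probes the arrays with tumors all lay below DMH.

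The 3 antigen processing genes, which lie next to each other in the MHC region, were not called either. Psmb9, a subunit of the immunoproteasome, was at 4.70, 3.26 and 3.05 with tumors and at 3.58, 3.51 and 3.29 without tumors, against 3.38, 3.31 and 3.23 in DMH. Psmb8, another such subunit, was at 4.42, 2.83 and 2.84 with tumors and at 3.37, 3.11 and 3.12 without tumors, against 2.92, 2.85 and 2.73 in DMH. Tap1, a chain of the peptide transporter, was at 1.04, -0.53 and -0.08 with tumors and at 0.34, 0.15 and 0.05 without tumors, against -0.21, -0.21 and -0.26 in DMH. In all of them array 1 with tumors was the highest of 9 arrays, and the arrays without tumors lay above DMH in Psmb8 and Tap1. The difference of Psmb9 with tumors was 0.36 ± 0.38 (adjusted p = 0.550), and a second Psmb8 probe gave -0.40 without tumors against DMH (adjusted p = 0.342), where the brighter one gave 0.36 (adjusted p = 0.495).

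Array 1 with tumors also stood apart in the means of the lymphocyte marker lists, though not in every marker. The mean of 10 T and natural killer cell markers relative to DMH was 1.92, 0.09 and 0.80 with tumors and 0.00, -0.24 and -0.19 without tumors, against -0.10 to 0.08 in DMH. Cd3d, part of the T cell receptor complex, was at 3.37, -0.01 and 1.11 with tumors and at -0.32, 0.44 and 0.46 without tumors, against -0.16, -0.01 and -0.30 in DMH. Cd4 went the other way on array 1 with tumors, at -5.55 against a DMH mean of -4.66. So did Jchain of the B and plasma cell list, at 2.92 against 5.88, while the mean of that list was 1.82 above DMH. Ifng, which encodes interferon gamma and is made by T and natural killer cells, was at -0.74, -4.88 and -3.70 with tumors and at -4.30, -3.20 and -3.32 without tumors, against -5.58, -4.94 and -4.70 in DMH. It was not called in any comparison (1.97 ± 0.91 with tumors against DMH, adjusted p = 0.185). Array 1 without tumors was the other array on which the members were high. Its mean of T and natural killer cell markers was at the DMH level, but single markers lay on both sides. Cd8a was at -0.86 against a DMH mean of -2.45, and Cd4 at -7.11 against -4.66. Cd4 was well above background on no array without tumors. The same array had B and plasma cell markers at -1.14, endothelial markers at 1.14 and smooth muscle markers at 1.51. Markers of enteric neurons and glia were at 1.83 and goblet cell markers at -1.68. Neutrophil markers (5 genes) were at -2.42 to 0.18 with tumors and -4.34 to -3.65 without tumors, and goblet cell markers (7 genes) at -2.84 to -1.01 with tumors and -1.68 to -1.25 without tumors, relative to DMH. The part of these cell types in the members' levels was not tested. Of the 6 listed markers of plasmacytoid dendritic cells, strong producers of type I interferon, 5 were tested, without Siglech. Their mean was 0.62, 0.06 and 0.05 with tumors and -0.79, -0.43 and -0.30 without tumors, against -0.08 to 0.13 in DMH. The mean with tumors joins genes that went opposite ways. Against DMH, Ccr9 was called higher there and Klk1 lower, where 5.7% of all features were called. Klk1 was at 3.88, 5.68 and 4.22 with tumors, against a DMH mean of 6.47. The low mean without tumors came mainly from Ly6d, which averaged -0.15 there against 3.01 in DMH. The median difference of the 5 genes without tumors was -0.08. Ccr9 (-2.08 against -2.53) and Cox6a2 (-2.74 against -3.22) averaged higher than in DMH.

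Of 21 interferon ligand genes listed, 12 had a probe and 9 were tested; Ifnb1 did not pass the filter on dim probes. Without tumors against DMH, Ifnk was called higher and Ifna12, Ifna9, Ifna2 and Ifnz lower, where 30.5% of all features were called. With tumors against DMH Ifna5 was higher and Ifna12 lower, where 5.7% of all features were called. Ifnk, an interferon of epithelia, was well above background on no DMH array and on 2 of 3 arrays without tumors. Its measured level without tumors was 2.69-fold that in DMH (adjusted p = 0.0193 by limma), a fold between dim values. Ifna12 was well above background on no array without tumors and was at least 3.19-fold lower there than in DMH (adjusted p = 0.00547). Ifna9 was higher with tumors than without tumors (1.69 ± 0.31, adjusted p = 0.0189), and so was Ifna13 (1.19 ± 0.31, adjusted p = 0.0415), where 13.5% of all features were called. These genes were dim and the alpha interferons are close copies of each other, so the assignment of a signal to 1 of them is uncertain. Ifnl3 was well above background on 2 arrays with tumors, none without tumors and 1 in DMH, and was not called.

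Of 10 receptor and kinase genes, 4 were called higher and none lower without tumors against DMH, where 30.5% of all features were called, and none was called with tumors against DMH, where 5.7% were. Ifnlr1, the specific chain of the lambda interferon receptor, was at 1.32, 0.88 and 0.64 with tumors and at 1.19, 1.17 and 1.25 without tumors, against 0.21, 0.33 and 0.25 in DMH. All 6 butyrate arrays lay above DMH, with a difference of 0.81 ± 0.19 over all of them (adjusted p = 0.0355) and 0.94 ± 0.19 without tumors (adjusted p = 0.00958). Ifngr1 and Ifngr2, the chains of the interferon gamma receptor, were higher without tumors by 0.65 ± 0.19 (adjusted p = 0.0347) and 1.14 ± 0.23 (adjusted p = 0.0101), and Jak2, a kinase bound to that receptor, by 0.75 ± 0.18 (adjusted p = 0.0189). Ifnar1, a chain of the type I receptor, differed by 0.05 ± 0.22 without tumors against DMH (adjusted p = 0.869).

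Among 16 genes of interferon induction, 3 were called between the butyrate groups, where 13.5% of all features were called. Sting1, the adaptor of DNA sensing, was at 3.68, 2.51 and 2.99 with tumors and at 1.06, 1.82 and 2.31 without tumors, against 2.79, 2.75 and 2.83 in DMH, and it was higher with tumors by 1.33 ± 0.36 (adjusted p = 0.0471). Tlr7, a receptor for single-stranded RNA, was higher by 1.65 ± 0.46 (adjusted p = 0.049), and Ticam1, an adaptor of Toll-like receptors, was lower (-0.71 ± 0.17, adjusted p = 0.0324). Irf1, a factor induced by interferon gamma, was at 5.72, 4.75 and 4.34 with tumors and at 5.42, 5.19 and 5.22 without tumors, against 4.46, 4.43 and 4.32 in DMH, with a difference without tumors of 0.87 ± 0.32 (adjusted p = 0.0658). Irf3 differed by 0.39 ± 0.24 without tumors (adjusted p = 0.231). Of 8 negative regulators, 1 was called higher (Ptpn11) and 2 lower (Socs3 and Irf2bp1) without tumors against DMH, where 30.5% of all features were called. Irf2bp1 was also called lower over all butyrate arrays, where 9.2% were. Socs3, an inhibitor of JAK kinases, was lower without tumors than in DMH (-0.90 ± 0.18, adjusted p = 0.0103). It was the only 1 of the 8 called between the butyrate groups, higher with tumors than without (1.48 ± 0.18, adjusted p = 0.0118).

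Of 33 other interferon-induced genes tested, in both directions, 3 were called over all butyrate arrays against DMH, 3 with tumors against DMH, 5 without tumors against DMH, and 4 with against without tumors, beside 9.2%, 5.7%, 30.5% and 13.5% of all features in the same order. Ifi27l2a, a small mitochondrial protein strongly induced by type I interferon, was at 5.08 and 4.72 on arrays 2 and 3 with tumors and at 3.20, 3.33 and 3.55 without tumors, against 6.40, 6.18 and 5.99 in DMH. The 3 groups did not overlap, and the spot of array 1 with tumors was left out as an outlier. Ifi27l2a fell without tumors against DMH (-2.83 ± 0.19, adjusted p = 0.000853) and with tumors (-1.29 ± 0.22, adjusted p = 0.0321), and was higher with than without tumors (1.54 ± 0.22, adjusted p = 0.0132). This order of the 3 groups, with the lowest levels without tumors and the highest in DMH, is the order of Ifi44. For Ifi44 it rests on 2 values without tumors. The spot left out there would have read -0.43, above arrays 1 and 3 with tumors (-1.04 and -0.67).

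Other guanylate-binding proteins were called in both directions. Gbp4 was at 0.19, -1.88 and -1.51 with tumors and at -1.51, -1.40 and -1.08 without tumors, against -3.00, -2.67 and -2.73 in DMH, and was called higher over all butyrate arrays (1.60 ± 0.40, adjusted p = 0.0415). Gbp5 was called higher with tumors (1.20 ± 0.25, adjusted p = 0.0401). Gbp6 was called lower over all butyrate arrays (-0.70 ± 0.18, adjusted p = 0.0441), at -2.58 to -2.32 with tumors and -3.01 to -2.69 without tumors, against -1.99 to -1.87 in DMH. Parp12 rose without tumors against DMH (1.46 ± 0.24, adjusted p = 0.00618), Sp100, a nuclear body protein, fell (-1.13 ± 0.14, adjusted p = 0.00185), and Ifitm1, which blocks the fusion of viruses, rose with tumors (1.05 ± 0.21, adjusted p = 0.0385). Cxcl10, a chemokine used as a marker of interferon gamma, was at 0.00, -1.38 and -1.11 with tumors and at -0.31, -0.40 and -1.48 without tumors, against -0.88, -0.58 and -0.71 in DMH, with no separation of the groups.

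Of 14 MHC class I genes outside the set, 7 fell and 1 rose without tumors against DMH, where 30.5% of all features were called. B2m, the light chain of class I molecules, was at 5.55, 5.62 and 5.69 with tumors and at 4.66, 4.50 and 4.79 without tumors, against 5.77, 5.92 and 5.88 in DMH, a difference without tumors of -1.21 ± 0.14 (adjusted p = 0.00183). H2-T23, a class Ib molecule, fell without tumors (-1.83 ± 0.20, adjusted p = 0.00151), as did Psme2, a proteasome activator (-1.72 ± 0.24, adjusted p = 0.00309), and Psmb10, the third immunoproteasome subunit (-0.69 ± 0.17, adjusted p = 0.0177). B2m, H2-T23 and Psme2 were also called higher with than without tumors, by 0.97 to 1.09 log2 units. The class I genes did not all fall. Canx was the gene called higher without tumors. H2-K1 was at 7.74, 6.23 and 6.27 with tumors and at 7.18, 6.66 and 6.35 without tumors, against 6.08, 6.05 and 5.95 in DMH. H2-D1 averaged 6.33 with tumors and 6.40 without tumors, against 5.75 in DMH, with overlap. Neither H2-K1 nor H2-D1 was called. Nlrc5, which activates class I genes, was at -1.36, -3.41 and -2.57 with tumors and at -3.55, -2.86 and -2.82 without tumors, against -3.38, -3.88 and -3.55 in DMH, and was not called. Of 6 MHC class II genes, H2-DMb1, a chain of the peptide exchanger, was called higher with than without tumors (1.70 ± 0.27, adjusted p = 0.0147). Macrophage and dendritic cell markers (10 genes) averaged -0.24 to 0.17 relative to DMH with tumors and -0.96 to -0.50 without tumors, and their part in these differences was not tested.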

How the data were processed

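RNA of 9 samples (3 per group) was read on Agilent mouse arrays in 1 colour (Cy3). Per the file headers, the deposited intensity (gProcessedSignal) is the output of Feature Extraction 10.5.1.1 after subtraction of background and spatial detrending of the array; arrays had not been scaled to each other. The authors' deposited table holds log2 values of 21829 probes, equal to log2 of that signal minus a constant per array whose meaning is unknown; it served as an alternative.

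Spots marked as outliers were set to missing, and log2 intensity was taken relative to the 75th percentile of the array. Probes well above background on at least 3 of 9 arrays, with at least 2 values per group, were kept. RefSeq accessions were named through a RefSeq gene table (GRCm38.p6). The DMH files carry another probe annotation, differing for 4725 probes, and 1 version was used throughout. The brightest probe stood for a gene. limma 3.58.1 in R 4.3.3 compared all butyrate arrays with DMH in a fit of 2 groups, and the other pairs in a fit of 3 groups; p-values were 2-sided and adjusted by Benjamini and Hochberg over 21964 features. The fit was tested on simulated data. Promoter motifs were searched with Python 3.11.15.

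Members, lists and tests were chosen with earlier results of these data known. All called members were given by array, and where under 4 were called, the 4 with the smallest p; of other interferon lists, up to 4 called genes per comparison, and 12 genes whether called or not, of which 1 is not reported here. Alternatives were other scalings, background correction, filters, joining of probes, weights, samples in the fit, blocks and each array left out; leaving out slide 1, averaging DMH arrays 2 and 3 and testing each probe were chosen after seeing the data. Normexp used an offset of 50.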

Additional observations from a re-analysis of the deposited data

Results flagged for a closer look

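Among the 6 butyrate arrays, Psmb8 and Psmb9 each had 1 array far above the others. The gap between array 1 with tumors and the next array, divided by the whole range, was 0.663 for Psmb8 (level 4.42) and 0.679 for Psmb9 (level 4.70), above Dixon's critical value for 6 samples. By chance about 1 in 20 groups is marked in this way, and the value of both genes is from the same array.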

How the results depend on the processing

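Calls among 27 members, for all butyrate against DMH, with tumors against DMH, without tumors against DMH and with against without tumors in that order, were 1, 0, 2 and 1. They were 0, 0, 1 and 0 with no scaling (which moved the median difference of all features to -0.76, -0.53, -1.004 and 0.48), 1, 1, 3 and 2 with normexp, 0, 2, 2 and 4 with the authors' values (25 members, without Ifi44), 0, 0, 2 and 1 with no filter on dim probes, 1, 1, 3 and 1 with probes well above background on all arrays, 1, 0, 2 and 0 with outlier spots kept, 10, 6, 9 and 6 with array weights, 2, 1, 5 and 0 with other samples in the fit, and 0, 0, 1 and 1 with slide as a random block. Slide as a fixed block, or slide 1 alone, left 0 calls between the butyrate groups. With DMH arrays 2 and 3 averaged, chosen after seeing the data, the counts were 0, 0, 2 and 1. Without slide 1, which left only arrays 2 and 3 with tumors to compare with DMH, 6 members were called. Quantile scaling, the mean of a gene's probes and the other annotation gave the main counts. Leaving out 1 array gave 0 to 2, 0 to 2, 1 to 6 and 0 to 6 calls. With replicate number as a block the counts were 1, 0, 3 and 3 (replicate block); same-numbered arrays correlated at -0.0095 to 0.263, so the numbers do not pair the samples.

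Array weights also raised the share of all features called for butyrate against DMH to 55.1%. For most other settings that share is not given here, so a change in the counts alone is not a result about the members. Ifi44 without tumors against DMH was called under all 22 alternatives run that hold it. Gbp2 for all butyrate against DMH was called in 14 of 24 and, without tumors, in 20 of 23, with a reversed difference of -0.062 with no scaling. Without slide 1, where only arrays 2 and 3 with tumors were compared with DMH, Oas3 differed by -0.62 (adjusted p = 0.0431 by limma). In the main fit Oas3 differed from DMH by 0.11 over all butyrate arrays and by -0.46 with tumors. The cause was not tested.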
